A study of Rattus norvegicus with 18 samples.

Results

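The genes of the rat major histocompatibility complex (MHC, named RT1 in the rat) and of antigen presentation were followed in cultured rat glia exposed to amyloid-β (Aβ) fibrils. A gene was included if its symbol begins with RT1-, or if it is B2m, Tap1, Tap2, Tapbp, Tapbpl, Ciita, Cd74, Cd80, Cd86, Cd274, Erap1 or Cd1d1. Nlrc5 was also sought, but the symbol was not among those in the tables used here. This gave 61 of 17930 genes: 39 class I RT1 genes, 10 class II RT1 genes and 12 others. Primary astrocytes and microglia came from the cortex of wild-type Sprague-Dawley rat pups at postnatal day 2. For 24 h the cells of each type stayed untreated (control) or received fibrils of Aβ42 or Aβ40, the longer and the shorter main form of the peptide, at 25 µM in serum-free medium. Each of the 6 groups held 3 libraries of poly(A) RNA, and the values are read counts per gene, also given as CPM, the count scaled for library size. The microglia had been shaken off mixed glial cultures and the astrocytes were the layer left behind, so cell type and preparation cannot be told apart. The labels do not say that replicates came from separate cultures, and p-values therefore measure only the spread between these libraries, which may be technical.

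MHC class I molecules display peptides from inside the cell to CD8 T cells. Their heavy chain pairs with β2-microglobulin (B2m), and peptides reach it through the TAP transporter (Tap1, Tap2), tapasin (Tapbp) and the trimming enzyme Erap1. MHC class II molecules are α and β chain pairs that display peptides from endosomes to CD4 T cells; the invariant chain (Cd74) escorts them, RT1-DM loads them, RT1-DO restrains RT1-DM, and Ciita is the coactivator that switches class II genes on. In the brain, microglia are the resident cells best known for class II, and astrocytes can acquire it when exposed to interferon-γ.

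Upstream sequences of 10 genes are shown so that the class I and class II families and their partners can be read side by side. RefSeq (GRCr8 assembly) promoter windows of 300 bases, from 250 before to 50 after the gene start, were matched for 51 of the 61 genes. Ciita, Erap1, RT1-CE14, RT1-CE7, RT1-Cl, RT1-DMb, RT1-M1-4, RT1-M2, RT1-M4 and RT1-N1 had no entry. The 150 bases before each start are printed 5′ to 3′ on the gene's strand. Capitals mark the Y box (ATTGG, or CCAAT on the other strand), and in RT1-S3, B2m and Tap1 also the interferon-stimulated response element (ISRE, here TTTC and TTTC with any 2 bases between, or GAAA and GAAA on the other strand).
RT1-Da (chr20:4515265-4515414, plus strand): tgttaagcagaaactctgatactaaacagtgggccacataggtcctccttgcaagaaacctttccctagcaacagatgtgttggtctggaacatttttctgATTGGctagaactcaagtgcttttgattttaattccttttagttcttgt
RT1-Db1 (chr20:4560163-4560312, minus strand): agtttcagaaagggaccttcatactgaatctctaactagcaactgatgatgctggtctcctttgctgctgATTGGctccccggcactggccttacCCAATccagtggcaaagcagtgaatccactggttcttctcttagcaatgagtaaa
RT1-Ba (chr20:4576907-4577056, plus strand): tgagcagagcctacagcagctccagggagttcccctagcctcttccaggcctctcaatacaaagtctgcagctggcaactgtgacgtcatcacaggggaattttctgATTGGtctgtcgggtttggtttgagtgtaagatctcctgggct
RT1-Bb (chr20:4604119-4604268, minus strand): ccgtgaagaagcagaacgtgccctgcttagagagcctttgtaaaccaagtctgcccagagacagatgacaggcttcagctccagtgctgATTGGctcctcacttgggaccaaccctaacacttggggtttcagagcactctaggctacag
RT1-DMa (chr20:4712336-4712485, minus strand): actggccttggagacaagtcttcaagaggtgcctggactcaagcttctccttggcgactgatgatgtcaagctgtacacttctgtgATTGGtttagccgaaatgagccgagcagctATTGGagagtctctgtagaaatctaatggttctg
RT1-DOb (chr20:4627524-4627673, minus strand): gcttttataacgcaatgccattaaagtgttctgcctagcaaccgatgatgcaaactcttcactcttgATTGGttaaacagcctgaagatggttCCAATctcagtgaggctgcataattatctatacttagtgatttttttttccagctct
RT1-A2 (chr20:4872721-4872870, plus strand): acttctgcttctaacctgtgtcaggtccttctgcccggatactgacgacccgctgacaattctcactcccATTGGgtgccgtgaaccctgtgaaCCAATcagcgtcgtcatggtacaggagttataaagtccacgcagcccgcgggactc
RT1-S3 (chr20:2675378-2675527, plus strand): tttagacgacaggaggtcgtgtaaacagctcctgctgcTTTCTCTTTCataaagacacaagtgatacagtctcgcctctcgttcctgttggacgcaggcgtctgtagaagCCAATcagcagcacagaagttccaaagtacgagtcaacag
B2m (chr3:129549180-129549329, plus strand): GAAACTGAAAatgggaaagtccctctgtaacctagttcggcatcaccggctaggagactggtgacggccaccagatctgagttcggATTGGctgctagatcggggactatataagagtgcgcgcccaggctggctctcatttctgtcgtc
Tap1 (chr20:4668544-4668693, minus strand): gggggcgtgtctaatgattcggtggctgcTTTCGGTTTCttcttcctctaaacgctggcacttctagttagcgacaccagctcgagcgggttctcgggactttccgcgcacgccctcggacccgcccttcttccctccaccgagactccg

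The Y box letters were in the window of 9 of 9 class II genes (100%), 21 of 32 class I genes (65.6%) and 37.5% of all 33469 promoters. In RT1-Da the Y box lay 49 to 45 bases before the start, and in RT1-Ba it lay 43 to 39 bases before it. The ISRE letters were in 4 of 5 class I partner genes (80%), 3 of 32 class I genes (9.38%), 0 of 9 class II genes and 3.92% of all promoters. The X2 box letters TGACG were in 1 of 9 class II and 9 of 32 class I windows against 21.2% of all. The interferon-γ activated sequence TTCNNNGAA was in 0 of 9 and 2 of 32 windows against 8.87% of all. All were searched on both strands, and none overlapped a Y box. RT1-DMa and RT1-DOb carry the Y box like the other class II genes, although neither was called higher with a fibril. A match of letters is a description of the window and not evidence of a bound factor.

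Counts on genes ran from 3674043 to 19013919 per astrocyte library and from 2271834 to 22274367 per microglia library, so 3 counts, the detection limit used here, equalled 0.158 to 0.817 and 0.135 to 1.32 CPM. These limits cover counting error only. Against the other libraries of their own group, control astrocyte replicate 2 (mean correlation 0.949) and Aβ42 microglia replicate 1 (0.964) stood apart, and the other 16 had 0.967 or more. Microglial markers were present in control astrocyte cultures, where 15 genes summed to 600 to 724 CPM. They fell to 40.5 to 57.3 CPM with Aβ42 and 33.5 to 40.1 CPM with Aβ40. Each time 15 of 15 were called lower, against 20.4% of all genes with Aβ42 and 18.4% with Aβ40. The 10 astrocyte markers summed to 7333 to 8534 CPM in control astrocytes, 5059 to 5333 with Aβ42 and 5531 to 5901 with Aβ40. Of 9 tested, 6 were lower and 2 higher with Aβ42 (Slc1a2 and Aldh1l1), against 20.4% and 16.5% of all genes. With Aβ40, 6 were lower and 3 higher, against 18.4% and 14.9%. In the microglia the microglial markers summed to 9725 to 11442 CPM in the control, 3795 to 5022 with Aβ42 and 4299 to 4697 with Aβ40. Their astrocyte markers summed to 218 to 245 CPM in the control, 198 to 234 with Aβ42 and 183 to 206 with Aβ40, with Gja1 and Slc4a4 higher with both fibrils. Their 5 fibroblast markers summed to 165 to 194, 207 to 224 and 182 to 193 CPM, within which Dcn rose by 7.11 with Aβ42 and 7.00 with Aβ40 and Lum by 2.43 and 2.26 on the log2 scale. Their 6 endothelial markers summed to 186 to 189.9, 42.1 to 64.4 and 89.9 to 114 CPM, with Cdh5 higher with Aβ40. The part of these other cell types in the microglial results was not tested. Markers of T cells, B cells and dendritic cells summed to 5.51 to 7.74 CPM in control astrocytes and 4.94 to 7.28 CPM with Aβ42. Cd3e, Cd3d, Cd8a and Ms4a1 were at 0 in both, and Zbtb46 made up most of the sums, at means of 5.62 and 5.61 CPM. The same list in microglia had a median sum of 14.5 CPM in the control, 5.24 with Aβ42 and 4.7 with Aβ40. Its 2 tested genes, Cd79b and Zbtb46, were lower with both fibrils. Cd79b had 50, 11 and 62 counts in the control, 0, 1 and 5 with Aβ42, and 2, 1 and 0 with Aβ40. The part of such cells in the microglial results was not tested. In such bulk samples, fewer cells of a type and less RNA per cell cannot be told apart.

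Of the 61 genes, 36 had enough counts to be tested in astrocytes and 31 in microglia. The others reached at most 17 counts in any astrocyte library and 28 in any microglia library, and 9 class I genes had no read in any of the 18 libraries (RT1-CE11, RT1-CE12, RT1-CE13, RT1-Cl, RT1-M1-5, RT1-M10-1, RT1-M4, RT1-M6-1 and RT1-N1). RT1-DOa, RT1-Ba, RT1-Bb, RT1-CE3, RT1-Da, RT1-Db1, RT1-DMa, Ciita and Cd274 had under 10 counts in every control astrocyte library, so their place in the test rested on the treated libraries, which favours a difference, and the counts of genes called in astrocytes are a description. With Aβ42, 30 of the 36 genes tested in astrocytes were higher than control (adjusted p under 0.05), against 16.5% of all genes tested, and 1, Cd86, was lower, against 20.4%. At 5-fold or more, 18 were higher, against 3.03% of all genes. With Aβ40, 30 were higher against 14.9%, 1 was lower against 18.4%, and 19 were higher at 5-fold or more against 2.82%. In microglia, Aβ42 raised 23 of 31 genes, against 27.1% of all genes tested, and lowered 1, Cd1d1, against 26.6%. Aβ40 raised 24, against 19.6%, and lowered Cd1d1, against 21.4%. In microglia 3 genes were 5-fold or more higher with each fibril, against 3.69% of all genes with Aβ42 and 3.36% with Aβ40. RT1-Bb and RT1-Db1 were low in control microglia, at means of 0.843 and 1.38 CPM on the scale of all 18 libraries. Their place in the test rested on the treated libraries, which favours a difference. RT1-DMa, RT1-DMb and RT1-DOb, lower with Aβ42 without the filter, were not tested, so the microglial counts are also a description. The fibril groups of a cell type shared their control libraries, so their values are given side by side and are not independent.

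**Figure D1:**
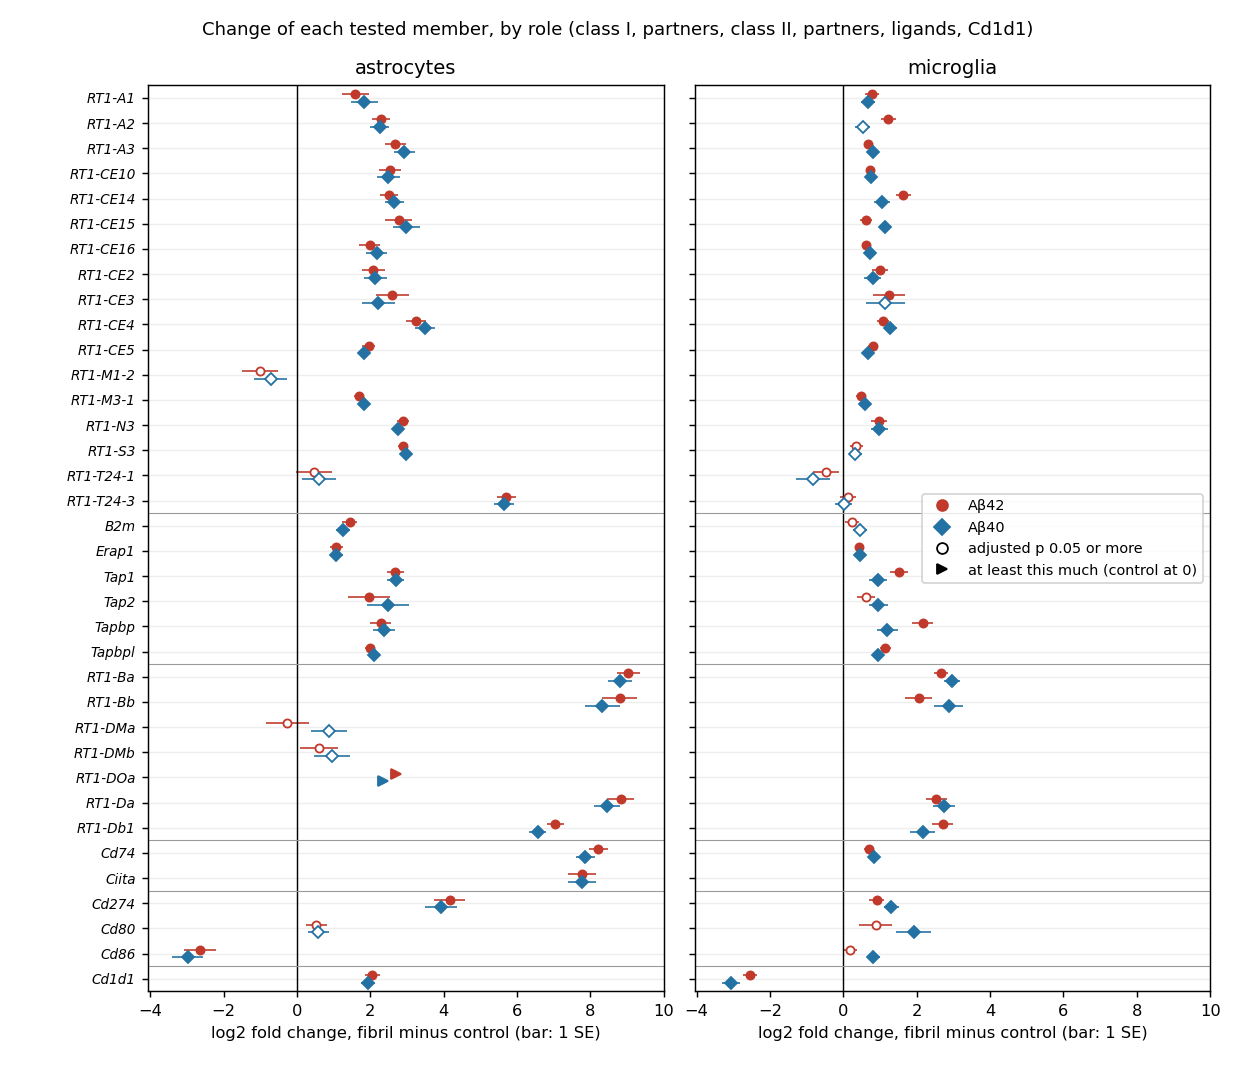
Fold changes of the tested genes. Each point is the log2 fold change of a gene against control in astrocytes (left) or microglia (right), with a bar of 1 standard error; circles are Aβ42, diamonds Aβ40, open symbols had an adjusted p of 0.05 or more, and triangles mark the lower bound for RT1-DOa, which had no read in the control. The class II genes RT1-Ba, RT1-Bb, RT1-Da and RT1-Db1 span 6.56 to 9.04 in astrocytes, whereas the same genes span 2.06 to 2.96 in microglia.

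The class II chains showed the largest rise, and it was in astrocytes. RT1-Ba, the α chain of the rat RT1-B molecule, had 0, 1 and 3 counts in the control astrocytes, 1585, 1002 and 777 with Aβ42, and 700, 1953 and 1237 with Aβ40. All 6 treated libraries stood far above the 3 control libraries. Its log2 fold change was 9.04 (SE 0.325, adjusted p = 9.8e-09) with Aβ42 and 8.81 (SE 0.326, adjusted p = 1.3e-08) with Aβ40. As the control held 4 counts in all, the counting interval of the ratio is wide, 220 to 2071 around 564-fold with Aβ42 (95% confidence, counting error only). RT1-Bb, its β chain, went from 0, 3 and 1 counts to 1513, 861 and 605 with Aβ42 and to 484, 1475 and 920 with Aβ40. The groups did not overlap, and the log2 fold changes were 8.80 (SE 0.472, adjusted p = 1.6e-07) and 8.33 (SE 0.476, adjusted p = 2.8e-07).

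The RT1-D pair, the other class II molecule, moved likewise. RT1-Da, its α chain, was at 0, 1.44 and 0.352 CPM in the control astrocytes, 227, 240 and 244 CPM with Aβ42, and 173, 182 and 194 CPM with Aβ40. Its Aβ40 libraries all lay below its Aβ42 libraries, though the difference between the fibrils was not called. The log2 fold changes were 8.82 (SE 0.358, adjusted p = 2.2e-08) and 8.45 (SE 0.358, adjusted p = 3.2e-08). RT1-Db1, its β chain, was at 0.835, 0.479 and 0.422 CPM, then 70.7, 71.6 and 63.5 CPM with Aβ42 and 43.6, 49.7 and 53.7 CPM with Aβ40. Again none of the treated libraries overlapped the control, and the log2 fold changes were 7.05 (SE 0.235, adjusted p = 6.1e-09) and 6.56 (SE 0.237, adjusted p = 1.1e-08).

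The partners of class II rose with the chains in astrocytes. Cd74, the invariant chain, was at 2.50, 4.79 and 2.18 CPM in the control, 919, 901 and 784 CPM with Aβ42, and 575, 757 and 701 CPM with Aβ40. All 6 treated libraries stood far above the control, with log2 fold changes of 8.22 (SE 0.267, adjusted p = 5.1e-09) and 7.87 (SE 0.264, adjusted p = 8.1e-09). Ciita, the class II coactivator, had 1, 0 and 2 counts in the control, 534, 335 and 223 with Aβ42, and 265, 718 and 456 with Aβ40. With 3 control counts in all, the ratio was 244-fold (counting interval 83.3 to 1186) with Aβ42 and 243-fold (83.0 to 1180) with Aβ40.

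The chains that act on peptide loading were not part of this rise as a group. RT1-DOa, a chain of the RT1-DM inhibitor, had no read in any control astrocyte library, 55, 40 and 30 with Aβ42, and 18, 71 and 50 with Aβ40. Measured against 3 counts per library, it was at least 6.48-fold higher with Aβ42 and at least 5.10-fold higher with Aβ40. RT1-DOb, its partner chain, stayed at 3 counts or fewer in every astrocyte library and was not tested. RT1-DMa, a chain of the loading catalyst, had 4, 3 and 6 counts in the control, 11, 4 and 2 with Aβ42, and 7, 27 and 16 with Aβ40. The libraries overlapped, and neither log2 difference was called (-0.26, adjusted p = 0.76, and 0.87, adjusted p = 0.21). RT1-DMb, the other chain of RT1-DM, had log2 differences of 0.61 (adjusted p = 0.40) and 0.97 (adjusted p = 0.16).

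**Figure D2:**
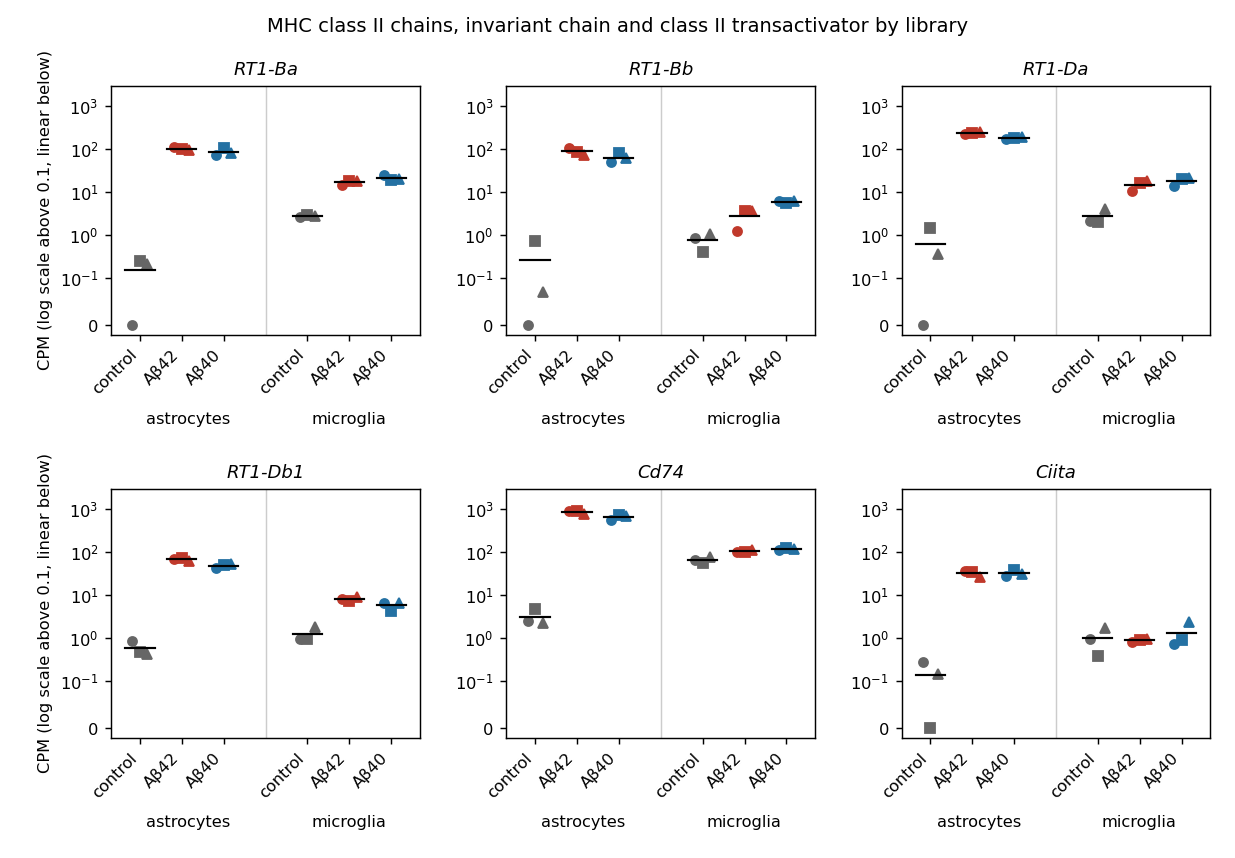
Class II genes by library. Each symbol is a library's level in CPM on an axis that is logarithmic except near 0, where it is linear, with circle, square and triangle for replicates 1, 2 and 3 and a black line for the group mean, in astrocytes and microglia under control, Aβ42 and Aβ40; the 2 cell types were scaled separately. The astrocyte levels of RT1-Da run from 173 to 244 CPM with the fibrils and from 0 to 1.44 CPM in the control, while the microglia run from 10.4 to 21.1 CPM with the fibrils and from 1.93 to 3.97 CPM in the control.

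In microglia the same 4 class II chains rose, from a control level above that of astrocytes and by less. RT1-Ba was at 2.59, 2.90 and 2.75 CPM in the control, 14.4, 17.8 and 18.4 CPM with Aβ42, and 25.3, 18.6 and 19.8 CPM with Aβ40. The groups did not overlap, and the log2 fold changes were 2.66 (SE 0.196, adjusted p = 3.2e-07) and 2.96 (SE 0.207, adjusted p = 2.4e-07). RT1-Da was at 2.12, 1.93 and 3.97 CPM, then 10.4, 15.9 and 17.6 CPM and 13.8, 19.9 and 21.1 CPM, with log2 fold changes of 2.53 (SE 0.283, adjusted p = 1.3e-05) and 2.74 (SE 0.303, adjusted p = 1.4e-05). RT1-Db1 gave 2.70 (adjusted p = 6.7e-06) and 2.16 (adjusted p = 0.00026). RT1-Bb gave 2.06 (adjusted p = 0.00061) and 2.87 (adjusted p = 9.1e-05). Its Aβ42 libraries were uneven, with 1.2 CPM in replicate 1, from 3 reads, against 3.59 CPM in each of the other two.

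Cd74 in microglia was at 64.8, 57.2 and 77.3 CPM in the control, 102, 104 and 114 CPM with Aβ42, and 116, 124 and 120 CPM with Aβ40. Both fibril groups lay above the control, with log2 fold changes of 0.69 (SE 0.119, adjusted p = 0.00044) and 0.85 (SE 0.121, adjusted p = 0.00012). Ciita in microglia had 8, 2 and 11 counts in the control, 2, 21 and 17 with Aβ42, and 3, 4 and 5 with Aβ40, too few to pass the filter. Without the filter its log2 differences were -0.16 (adjusted p = 0.79) and 0.11 (adjusted p = 0.94). RT1-DMa and RT1-DOb were low and went the other way. RT1-DMa had 22, 27 and 11 counts in the control, 0, 10 and 6 with Aβ42, and 1, 0 and 3 with Aβ40. RT1-DOb had 24, 7 and 28 in the control against 0, 2 and 5 and then 0 in each Aβ40 library. They missed the filter too. Without it RT1-DMa was lower by log2 values of -3.0 (adjusted p = 0.00032) and -2.98 (adjusted p = 0.0076), and RT1-DMb by -2.28 (adjusted p = 0.0022) and -1.77 (adjusted p = 0.064, not called). RT1-DOb had adjusted p of 6.0e-05 and 0.00064, with a size that rests on libraries at 0. Cd79b, of the T cell, B cell and dendritic cell markers, also fell in these cultures. The part of such cells in the falls of RT1-DMa, RT1-DMb and RT1-DOb was not tested. RT1-DOa, with no read in the microglial control, was not called (adjusted p = 0.056 and 0.33).

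Class I heavy chains rose more evenly, and further in astrocytes than in microglia. Of 17 class I genes tested in astrocytes, 15 were higher with each fibril, against 16.5% of all genes with Aβ42 and 14.9% with Aβ40. The called log2 fold changes were 1.59 to 5.71 for Aβ42 and 1.83 to 5.64 for Aβ40. Of 16 tested in microglia, 13 were higher with Aβ42 (0.48 to 1.63), against 27.1%, and 11 with Aβ40 (0.60 to 1.28), against 19.6%. RT1 class I genes are near-copies of each other. Reads that fit several of them may have been split between them or set aside. The counts of each library hold a row of ambiguous reads, which was left out. How many of those reads came from RT1 genes is not given. The value of a single class I gene is thus less certain than that of the group. Reads set aside would also be missing from the class I sums and would raise the class II share.

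RT1-S3, a non-classical class I gene, was at 70.1, 61.3 and 55.8 CPM in control astrocytes, 466, 475 and 441 CPM with Aβ42, and 465, 482 and 521 CPM with Aβ40. Treated and control libraries were far apart, and the log2 fold changes were 2.89 (SE 0.126, adjusted p = 3.7e-08) and 2.98 (SE 0.126, adjusted p = 3.2e-08). In microglia it was at 265, 198 and 272 CPM, then 225, 330 and 382 CPM with Aβ42 and 302, 305 and 315 CPM with Aβ40. The Aβ42 libraries overlapped the control, and neither change was called (0.36, adjusted p = 0.10, and 0.32, adjusted p = 0.17).

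RT1-A2, of the classical RT1-A region, was at 29.5, 16.0 and 41.6 CPM in control astrocytes, 145, 154 and 139 CPM with Aβ42, and 140, 139 and 151 CPM with Aβ40. It rose by 2.29 (SE 0.259, adjusted p = 4.3e-05) and 2.26 (SE 0.258, adjusted p = 5.2e-05) on the log2 scale. In microglia it was at 176, 165 and 191 CPM, 260, 436 and 538 CPM with Aβ42, and 256, 263 and 249 CPM with Aβ40. Here the Aβ42 change was called (1.22, SE 0.200, adjusted p = 0.00029), while the Aβ40 change was just outside the threshold (0.53, adjusted p = 0.053), although no Aβ40 library overlapped the control.

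RT1-T24-3 had the largest class I change, and it was called in astrocytes alone. It was at 4.17, 1.91 and 3.02 CPM in control astrocytes, 183, 159 and 132 CPM with Aβ42, and 117, 172 and 163 CPM with Aβ40. That is 52.4-fold and 50.0-fold (log2 5.71, SE 0.266, adjusted p = 5.6e-08, and 5.64, SE 0.266, adjusted p = 7.1e-08). In microglia it was already at 111, 62.8 and 112 CPM in the control, and 74.8, 104 and 131 CPM with Aβ42 and 98.2, 103 and 87.3 CPM with Aβ40 overlapped those values. The microglial log2 differences of 0.13 and 0.01 had adjusted p of 0.63 and 0.98, and the difference in response between the cell types was called for both fibrils (-5.59, adjusted p = 2.2e-09, and -5.65, adjusted p = 2.4e-09).

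Other class I genes spread over a narrower range. RT1-A1 rose by 1.59 and 1.84 in astrocytes and 0.78 and 0.67 in microglia on the log2 scale. RT1-CE4 rose by 3.25 and 3.48 in astrocytes and 1.08 and 1.28 in microglia, and RT1-N3 by 2.89 and 2.77 against 0.96 and 0.98. RT1-M3-1, of a family known for presenting N-formylated peptides, was at 35.9, 28.2 and 32.3 CPM in control astrocytes and 105, 105 and 99.9 CPM with Aβ42. It rose by 1.69 and 1.83 in astrocytes, and in microglia by 0.48 and 0.60. The class I genes not called with either fibril were RT1-M1-2 and RT1-T24-1 in astrocytes and RT1-S3, RT1-T24-1 and RT1-T24-3 in microglia.

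The machinery of class I followed its heavy chains in astrocytes. There 6 of 6 partner genes were higher with each fibril, against 16.5% of all genes with Aβ42 and 14.9% with Aβ40. B2m, the light chain, was at 1036, 989 and 575 CPM in the control, 2152, 2396 and 2475 CPM with Aβ42, and 2137, 1916 and 2167 CPM with Aβ40. All treated libraries were above all controls, by 1.43 (SE 0.197, adjusted p = 0.00018) and 1.26 (SE 0.196, adjusted p = 0.0005) on the log2 scale. Tap1, a TAP subunit, was at 54.5, 29.7 and 53.0 CPM, then 330, 322 and 236 CPM with Aβ42 and 261, 310 and 319 CPM with Aβ40 (log2 2.69 with each, adjusted p = 5.0e-06 and 5.7e-06). Tap2, the other subunit, was the least even, with 19.4, 11.9 and 6.37 CPM in the Aβ42 libraries against 4.45, 0.479 and 4.15 CPM in the control. Its Aβ42 change of 1.96 (adjusted p = 0.021) lost its call without Aβ42 replicate 1 (adjusted p = 0.079). Tapbp, or tapasin, gave 2.28 and 2.37, Tapbpl, a peptide editor related to it, 1.99 and 2.10, and Erap1 1.07 and 1.07.

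In microglia 4 of the 6 class I partners were higher with Aβ42, against 27.1% of all genes, and 5 with Aβ40, against 19.6%. Tapbp was at 89.6, 63.6 and 82.8 CPM in the control, 171, 417 and 465 CPM with Aβ42, and 186, 185 and 172 CPM with Aβ40. The groups did not overlap the control, at log2 fold changes of 2.17 (SE 0.287, adjusted p = 5.3e-05) and 1.2 (SE 0.285, adjusted p = 0.005). Tap1 rose by 1.51 (adjusted p = 0.00028) and 0.95 (adjusted p = 0.0085), Tapbpl by 1.14 and 0.95, and Erap1 by 0.42 and 0.44. B2m was not called with either fibril, at 0.24 (adjusted p = 0.29) and 0.46 (adjusted p = 0.063). Tap2 was called with Aβ40 (0.95, adjusted p = 0.013), and had 0.61 (adjusted p = 0.058) with Aβ42.

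The ligands that T cells read beside the MHC did not move as one. Cd274, or PD-L1, which restrains T cells, had 2, 0 and 3 counts in control astrocytes, 55, 49 and 35 with Aβ42, and 36, 70 and 52 with Aβ40. It rose by 4.16 (SE 0.428, adjusted p = 2.1e-05) and 3.93 (SE 0.431, adjusted p = 3.8e-05) on the log2 scale. With 5 control counts in all, the ratio was 18.6-fold (counting interval 7.80 to 58.3) and 16.0-fold (6.72 to 50.01), and 7.33-fold and 6.20-fold against 3 counts per library. In microglia it was at 32.6, 23.6 and 42.2 CPM in the control and rose by 0.91 (adjusted p = 0.0027) and 1.30 (adjusted p = 0.0003). Cd86, a costimulatory ligand of CD28, was the only tested gene called lower in astrocyte cultures, going from 17, 38 and 53 counts to 10, 9 and 9 with Aβ42 and 10, 7 and 12 with Aβ40. On the CPM scale no treated library reached a control library, and the change was 6.28-fold lower with Aβ42 (log2 -2.65, SE 0.438, adjusted p = 0.00067) and 7.90-fold lower with Aβ40 (log2 -2.98, SE 0.433, adjusted p = 0.00031). The microglial markers of these cultures fell at the same time, with a median log2 change of -3.47 with Aβ42 and -3.40 with Aβ40, and their part in the Cd86 value was not tested. In microglia, Cd86 was higher with Aβ40 (0.82, adjusted p = 0.004) and not called with Aβ42 (0.18, adjusted p = 0.43). Cd80, the other CD28 ligand, was called in microglia with Aβ40 alone (1.92, adjusted p = 0.0062).

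Cd1d1, which presents lipids to natural killer T cells, went in opposite directions in the 2 cell types. In astrocytes it was at 3.62, 3.59 and 3.24 CPM in the control, 12.6, 15.4 and 15.0 CPM with Aβ42, and 15.5, 11.6 and 12.8 CPM with Aβ40. Every treated library was above the control, by 2.06 (SE 0.196, adjusted p = 1.1e-05) and 1.95 (SE 0.195, adjusted p = 1.9e-05) on the log2 scale. In microglia it was at 41.0, 41.1 and 40.9 CPM in the control, 4.80, 7.36 and 7.36 CPM with Aβ42, and 2.65, 6.93 and 5.06 CPM with Aβ40. There every treated library was below the control, 5.84-fold and 8.35-fold lower (log2 -2.55, SE 0.200, adjusted p = 5.6e-07, and -3.06, SE 0.245, adjusted p = 8.1e-07). The difference in response was called for both fibrils (-4.62, adjusted p = 2.0e-09, and -5.03, adjusted p = 2.2e-09).

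**Figure D3:**
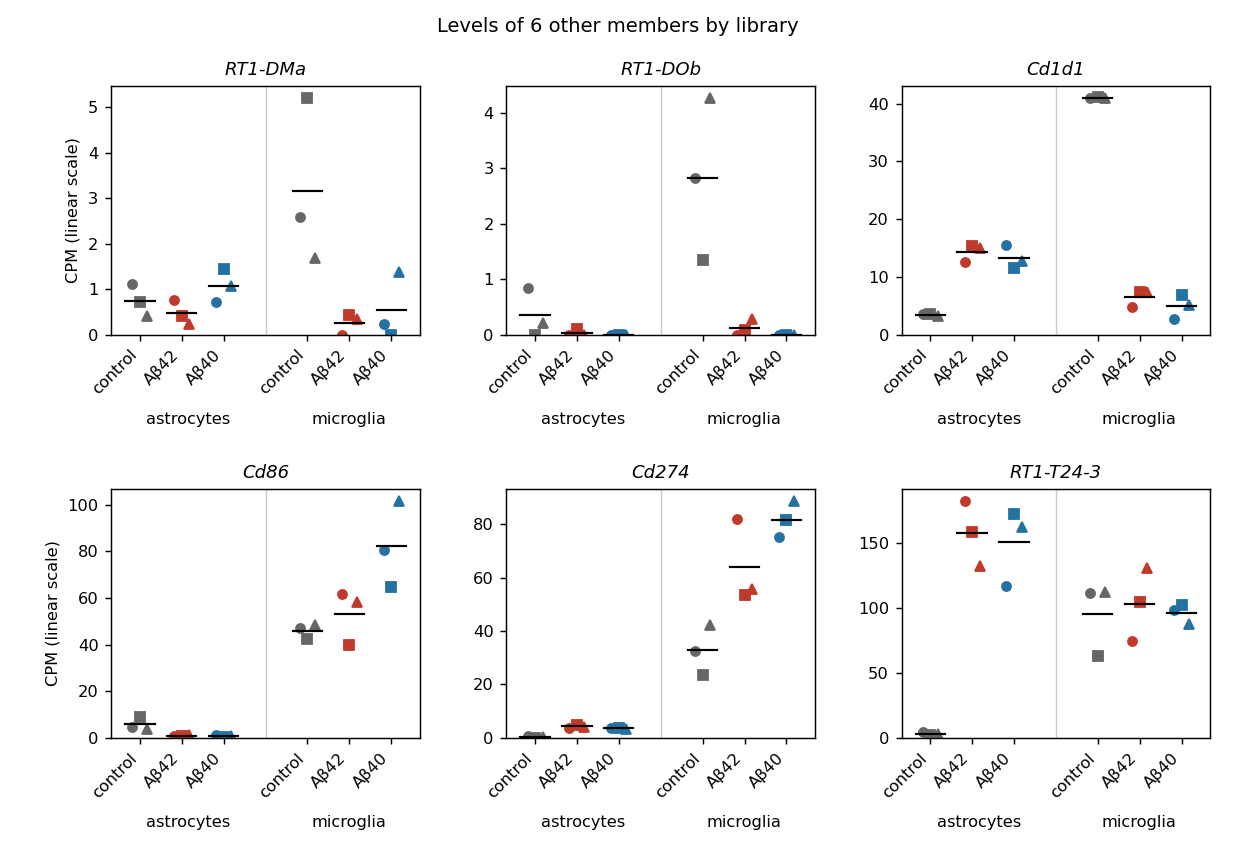
Levels of 6 other genes by library. Symbols are as in the plot of class II genes, with CPM on a linear axis that starts at 0. Cd1d1 lies between 3.24 and 3.62 CPM in control astrocytes and between 11.6 and 15.5 CPM with the fibrils, and between 40.9 and 41.1 CPM in control microglia and 2.65 to 7.36 CPM with the fibrils.

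Class I and class II were compared by their median changes and by their summed counts. With Aβ42 in astrocytes, the median log2 fold change over tested genes was 2.51 for 17 class I genes and 8.38 for 7 class II genes, or 7.05 with RT1-DOa at its bound, against 0.00 over all genes. With Aβ40 the medians were 2.26 and 8.08, or 6.56 with the bound. Over genes with any count, without the filter, the Aβ42 medians were 2.21 and 4.86. In microglia the medians were 0.75 for 16 class I and 2.60 for 4 class II genes with Aβ42, and 0.74 and 2.80 with Aβ40, against 0.01 over all genes. As these medians rest on genes that passed a filter on low counts, they describe those genes and not the full families.

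The summed counts of every class I and every class II gene, tested or not, gave the same order. In astrocytes the class II sum went from 3.22 ± 0.781 CPM (SD, n = 3) in the control to 500.2 ± 19.7 CPM with Aβ42 and 387 ± 40.5 CPM with Aβ40, which is 155 and 120 times the control. The class I sum went from 274 ± 50.3 to 1496 ± 105 and 1563 ± 154 CPM, which is 5.46 and 5.71 times the control. Class II thus went from 1.22% ± 0.527 of the RT1 counts to 25.1% ± 0.596 with Aβ42 and 19.9% ± 0.366 with Aβ40. By library these shares were 0.957%, 1.83% and 0.877% in the control, 24.5%, 25.05% and 25.7% with Aβ42, and 19.8%, 20.2% and 19.5% with Aβ40, with no overlap between the 3 groups. An exact permutation test of 3 libraries against 3 cannot give a two-sided p below 0.1, so no p is given for the shares.

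In microglia the class II sum rose from 14.7 ± 1.49 CPM to 43.5 ± 7.52 with Aβ42 and 52.2 ± 3.22 with Aβ40, 2.95 and 3.54 times the control. The class I sum rose from 1137 ± 97.2 to 1878 ± 411 and 1704 ± 147 CPM, 1.65 and 1.5 times the control. The class II share was 1.14%, 1.41% and 1.30% in the control, 2.35%, 2.37% and 2.13% with Aβ42, and 3.25%, 2.81% and 2.88% with Aβ40. These 3 groups did not overlap either, but the order of the fibrils was the reverse of that in astrocytes.

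**Figure D4:**
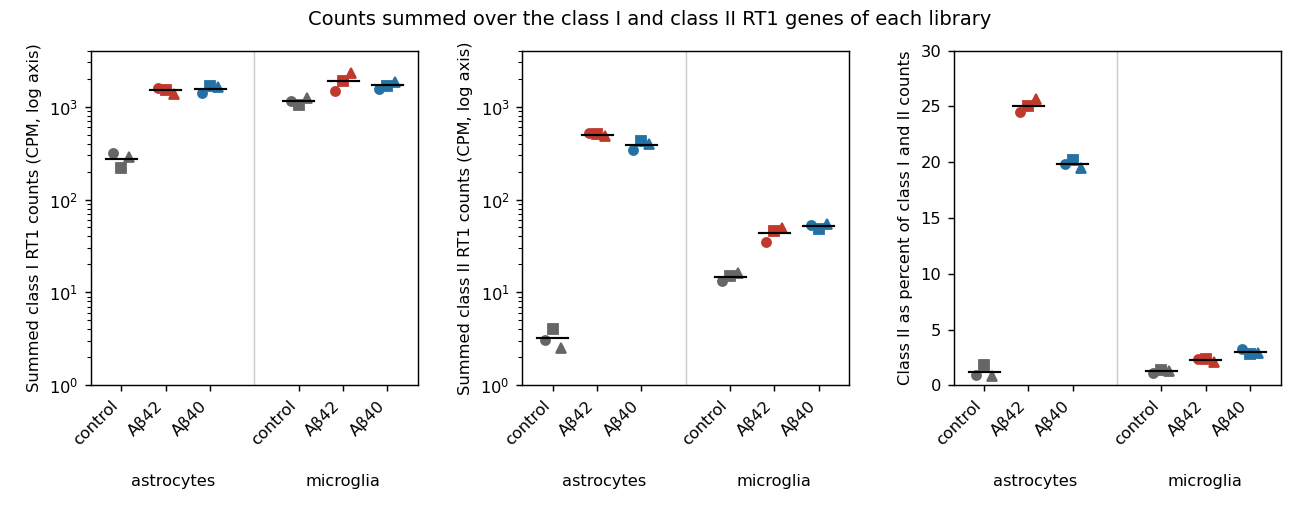
Summed class I and class II levels by library. Each symbol is a library's summed CPM over 39 class I or 10 class II genes on a log axis, or the class II share of all RT1 counts in percent on a linear axis, with replicates as circle, square and triangle and the mean as a black line; astrocytes and microglia were scaled separately. The class II share lies between 19.5% and 25.7% in treated astrocytes and between 2.13% and 3.25% in treated microglia.

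The cell types were then set on 1 scale over all 18 libraries. In the untreated state, 32 of the 36 genes tested in this fit were higher in microglia, against 34.2% of all genes tested, and 1, Tapbpl (log2 -0.63, adjusted p = 0.0012), was higher in astrocytes, against 34.5%. Cd274 differed most (log2 7.34, adjusted p = 2.7e-12), followed by RT1-T24-3 (5.24), Cd74 (4.78) and RT1-Ba (4.07). After exposure the order of class II was the other way round. The class II sum was 3.01 CPM in control astrocytes and 16.4 CPM in control microglia, then 475 and 49.0 CPM with Aβ42, and 366 and 57.9 CPM with Aβ40, so that astrocytes had 0.184 times the microglial level untreated, 9.69 times with Aβ42 and 6.32 times with Aβ40. Cd74 was at 2.95 CPM in control astrocytes against 73.8 CPM in control microglia, and at 823 against 120 CPM with Aβ42. Class I came closer without crossing, from 20.3% of the microglial sum untreated to 67.1% with Aβ42 and 78.0% with Aβ40. On this scale the microglial markers of the astrocyte cultures were 5.35% of those in microglia in the control, 0.942% with Aβ42 and 0.712% with Aβ40. The same markers also fell in the microglia, from a mean of 11555 CPM to 4923 with Aβ42 and 4966 with Aβ40. The part of microglia in the class II values of the astrocyte cultures was not tested.

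The response itself was tested between the cell types by the interaction of cell type and fibril. A negative value means that the log2 change was lower in microglia than in astrocytes, through a larger rise in astrocytes or a fall in microglia. Genes near 0 in control astrocytes, such as Ciita, Cd274 and the RT1-B and RT1-D chains, entered this fit through groups where they were higher. That favours a difference, and the counts below are a description. Ciita, with 3 control astrocyte counts in all, did not pass the filter in microglia alone. With Aβ42, 27 of 36 genes had a negative value, against 17.9% of all genes, and 1, Cd86, a positive one, against 19.3%. The negative values include Cd1d1, which rose in astrocytes and fell in microglia, and RT1-DMa and RT1-DMb, which were not called in astrocytes. The positive value of Cd86 with Aβ42 goes with a fall in astrocytes and no called change in microglia. With Aβ40 29 were negative, against 16.5%, and again Cd86 alone was positive, against 16%. The largest differences, as microglia minus astrocytes on the log2 scale, were in Ciita (-7.91, SE 0.731, adjusted p = 1.0e-07, with Aβ42 and -7.64, SE 0.773, adjusted p = 3.8e-07, with Aβ40) and Cd74 (-7.55, SE 0.268, adjusted p = 3.2e-13, and -7.05, SE 0.268, adjusted p = 1.1e-12). RT1-Bb, RT1-Ba and RT1-Da followed at -6.73, -6.37 and -6.31 with Aβ42. Tapbp did not differ detectably in its response to Aβ42 (-0.11, SE 0.429, adjusted p = 0.86). Of the genes raised by Aβ42, 23 were raised in both cell types, which is 76.7% of the 30 in astrocytes and 100% of the 23 in microglia. With Aβ40, 22 were shared, 73.3% of the 30 and 91.7% of the 24. The same shares were not computed over all genes, so these values do not set the genes apart from others. Genes tested in astrocytes alone, such as Ciita and RT1-DOa, could not be shared.

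The 2 fibrils were also compared directly. In astrocytes edgeR called 0 of 36 genes between Aβ42 and Aβ40, where 0.0599% of all genes were higher and 0.0257% lower with Aβ42. At an unadjusted p under 0.05 edgeR had 2 and DESeq2 4. The share of all genes at that threshold was not computed, so these counts do not show a difference between the fibrils. The fit of these groups alone called 2 genes higher with Aβ42, where 2.31% of all genes were called in either direction. The class II chains and Cd74 had positive differences, 0.23 for RT1-Ba (SE 0.164, adjusted p = 1.0), 0.47 for RT1-Bb (SE 0.239, adjusted p = 0.92), 0.37 for RT1-Da (SE 0.204, adjusted p = 0.97), 0.48 for RT1-Db1 (SE 0.137, adjusted p = 0.32) and 0.36 for Cd74 (SE 0.177, adjusted p = 0.90). The Aβ42 and Aβ40 libraries of RT1-Da, RT1-Db1 and Cd74 did not overlap, though none was called. The share of all genes separated in this way was not computed, so the separation does not set these genes apart. In microglia 4 of 31 genes were called. RT1-A2 (0.69, SE 0.200, adjusted p = 0.035) and Tapbp (0.97, SE 0.278, adjusted p = 0.035) were higher with Aβ42, against 11.3% of all genes, and RT1-CE15 (-0.52, SE 0.158, adjusted p = 0.041) and Cd86 (-0.64, SE 0.187, adjusted p = 0.037) were lower, against 9.01%. These shares are below the background, and none of the 4 was called in the fit of these groups alone. Leaving out any of Aβ42 replicates 2 and 3 and the 3 Aβ40 libraries ended all 4 calls, with 0.905% to 1.38% of all genes called. Without Aβ42 replicate 1, which stood apart, 5 genes were higher and 6 lower, where 53.8% of all genes were called.

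Other genes of the pathway, 41 in all, were taken from a list. In astrocytes 18 of 38 tested were higher and 1 lower with Aβ42, against 16.5% and 20.4% of all genes, and 16 were higher and 2 lower with Aβ40, against 14.9% and 18.4%. The immunoproteasome subunits, which cut peptides for class I, rose: Psmb8 by 3.09 (SE 0.313, adjusted p = 1.9e-05) and Psmb9 by 2.99 (SE 0.215, adjusted p = 1.4e-06) with Aβ42, and by 3.19 and 3.08 with Aβ40. The proteasome activators Psme1 and Psme2 rose by 1.11 and 1.71 with Aβ42. Of 9 tested genes of interferon-γ signalling, 8 were higher with Aβ42 (all genes 16.5%), including the transcription factor Irf1 (2.41, adjusted p = 2.1e-07) and the receptor chain Ifngr1 (1.27, adjusted p = 2.1e-05). Ifng, the gene of interferon-γ itself and named here after its values were seen, had 1 read in a single Aβ40 library and 0 in the other astrocyte and microglia libraries. Rfx5, which binds the X box of class II promoters, had 0.14 (adjusted p = 0.61). The class II proteases and their relatives were mixed, with 2 higher and 1 lower of 7 (all genes 16.5% and 20.4%). Lgmn, a lysosomal protease, was the lower one (-0.37, adjusted p = 0.018), and Ctss, which trims the invariant chain, had -0.20 (adjusted p = 0.24) with Aβ42 and -0.68 (adjusted p = 0.0015) with Aβ40.

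In microglia 8 of 37 pathway genes were higher and 13 lower with Aβ42, against 27.1% and 26.6% of all genes, and 7 were higher and 11 lower with Aβ40, against 19.6% and 21.4%. The share higher was not above that of all genes with either fibril. Psmb8 rose by 0.93 (adjusted p = 0.0002) and Psme2 by 0.83 (adjusted p = 6.9e-05) with Aβ42. Irf1 had 0.02 (adjusted p = 0.88). Of 8 genes for class II proteolysis and turnover, 5 were lower with Aβ42, against 26.6% of all genes. Ctss fell by 2.07 (SE 0.141, adjusted p = 1.6e-07), and Ifi30, a lysosomal thiol reductase, fell by 2.02 (SE 0.105, adjusted p = 1.5e-08). Ifngr1 fell by 1.08 (adjusted p = 5.5e-06). Socs1, an inhibitor of interferon signalling, was the highest of the list (5.02, SE 0.510, adjusted p = 5.4e-06), and Irf8, a myeloid transcription factor, the lowest (-4.26, SE 0.202, adjusted p = 6.4e-09). The microglial markers of these cultures also fell, with 10 of 15 lower and 1 higher with Aβ42, against 26.6% and 27.1% of all genes. With Aβ40, 13 of 15 were lower and 1 higher, against 21.4% and 19.6%. The part of this fall in those of the pathway genes was not tested.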

How the data were processed

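RNA was measured in 18 libraries by stranded poly(A) sequencing (TruSeq Stranded mRNA, HiSeq). The authors aligned reads to rn5 with STAR, quantified genes with Salmon and produced the gene counts with DESeq2; versions, annotation and strand setting are not given in the sources used here. The deposited values are raw counts per gene for each library. Between 21.7% and 34.2% of a library's counts lay on rows that name no gene, for reads on no feature and for ambiguous reads, and were left out.

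Genes were filtered with filterByExpr within each cell type (11690 genes in astrocytes, 10837 in microglia, 11581 together), scaled by TMM and tested with edgeR 4.0.16 (quasi-likelihood, limma 3.58.1, R 4.3.3), with Benjamini-Hochberg adjustment over all genes tested and a threshold of 0.05. The 3 groups of a cell type shared 1 fit, and all 6 groups shared 1 fit between cell types. SE is the log2 fold change divided by the square root of F. DESeq2 1.42.0, other scalings, filters and groups, a replicate block and leaving out each library were alternatives. The scripts were tested on simulated data. No libraries were duplicates.

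The genes of the set, the lists and the tests were chosen with earlier results of these data known. Named were all tested genes of the set, 10 pathway genes (1 of which is not reported here), and the highest and lowest called pathway gene with Aβ42 in each cell type. Promoter coordinates are GRCr8 and were not mixed with rn5.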

Additional observations from a re-analysis of the deposited data

Results flagged for a closer look

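These results are listed because the change with a fibril differed between astrocytes and microglia by edgeR's test of the interaction, at an adjusted p under 0.05 over all genes tested. A negative value means that the log2 change was lower in microglia, through a larger rise in astrocytes or a fall in microglia, and a positive value the reverse. Cell type and preparation cannot be told apart, and the 2 fibrils share their control libraries. Genes near 0 in control astrocytes, such as Ciita, Cd274 and the RT1-B and RT1-D chains, entered the fit through groups where they were higher, which favours a difference.

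With Aβ42, 28 genes differed between the cell types in their response (microglia minus astrocytes, log2 scale). The class II chains were RT1-Ba (-6.37), RT1-Bb (-6.73), RT1-Da (-6.31), RT1-Db1 (-4.34), RT1-DMa (-2.76), RT1-DMb (-2.89). The class II partners were Cd74 (-7.55), Ciita (-7.91). The class I heavy chains were RT1-A2 (-1.07), RT1-A3 (-2.0), RT1-CE10 (-1.82), RT1-CE14 (-0.88), RT1-CE15 (-2.14), RT1-CE16 (-1.36), RT1-CE2 (-1.11), RT1-CE4 (-2.18), RT1-CE5 (-1.17), RT1-M3-1 (-1.22), RT1-N3 (-1.94), RT1-S3 (-2.54), RT1-T24-3 (-5.59). The class I partners were B2m (-1.21), Tap1 (-1.18), Tapbpl (-0.85), Erap1 (-0.66). The rest were Cd86 (2.81), Cd274 (-3.24), Cd1d1 (-4.62).

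With Aβ40, 30 genes differed between the cell types in their response (microglia minus astrocytes, log2 scale). The class II chains were RT1-Ba (-5.85), RT1-Bb (-5.46), RT1-Da (-5.72), RT1-Db1 (-4.41), RT1-DMa (-3.86), RT1-DMb (-2.75). The class II partners were Cd74 (-7.05), Ciita (-7.64). The class I heavy chains were RT1-A1 (-1.18), RT1-A2 (-1.75), RT1-A3 (-2.14), RT1-CE10 (-1.77), RT1-CE14 (-1.61), RT1-CE15 (-1.85), RT1-CE16 (-1.46), RT1-CE2 (-1.35), RT1-CE4 (-2.21), RT1-CE5 (-1.19), RT1-M3-1 (-1.25), RT1-N3 (-1.80), RT1-S3 (-2.67), RT1-T24-3 (-5.65). The class I partners were B2m (-0.82), Tap1 (-1.76), Tapbp (-1.19), Tapbpl (-1.17), Erap1 (-0.65). The rest were Cd86 (3.77), Cd274 (-2.63), Cd1d1 (-5.03).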

How the results depend on the processing

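Over 229 results on single genes, 3077 of 3227 alternative values kept their direction and their side of the threshold, 119 lost the call, 21 gained one and 10 changed sign. The changes of sign were in values near 0 that were not called in the main analysis or with the sign changed. RT1-T24-3 in microglia with Aβ40 was at -0.011 with library totals and -0.0034 without the filter. With 1 library left out, the log2 values ran from -0.19 to 0.16 for RT1-T24-3 with Aβ40, -0.080 to 0.28 for RT1-T24-3, -0.77 to 0.16 for RT1-T24-1 and -0.043 to 0.40 for B2m with Aβ42, all in microglia, and from -0.86 to 0.042 for RT1-DMa in astrocytes with Aβ42.

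Without the filter on low counts, the Aβ42 medians in astrocytes were 2.21 for class I and 4.86 for class II and the Aβ40 median for class II was 4.87, since genes near 0 enter. Genes of the set lower were then 2 in astrocytes with Aβ40, and 4 with Aβ42 and 3 with Aβ40 in microglia. Genes of the set higher in control astrocytes were 3. With at least 10 counts in 3 libraries, 2 were lower in microglia with each fibril and 2 higher in control astrocytes. In the fit of the compared groups alone, 3 were lower in microglia with Aβ42, 2 were higher in astrocytes between the fibrils, and 0 were higher and 0 lower in microglia between the fibrils. Leaving out the gene with the most counts in each class made the class II share 20.2% (Aβ42) and 15.9% (Aβ40) in astrocytes, and 1.78% and 2.09% in microglia.

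Leaving out 1 library at a time, genes of the set higher than control were 29 to 31 with Aβ42 and 30 to 31 with Aβ40 in astrocytes, and 21 to 25 and 21 to 24 in microglia. Genes of the set lower were 1 to 2 in astrocytes with Aβ42 (2 without control replicate 1), and 1 to 3 with each fibril in microglia. Between the fibrils in microglia, 0 to 5 were higher and 0 to 6 lower. Genes of the set higher in control astrocytes were 1 to 2. Genes of the set with a positive difference in response to Aβ40 (microglia minus astrocytes) were 1 to 2 (2 without control astrocyte replicate 3).

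The labels give the groups the same replicate numbers, but same-numbered libraries did not deviate together (correlations of -0.641 to 0.436 in astrocytes and -0.221 to 0.264 in microglia). With a replicate block, genes of the set between the fibrils in microglia were 0 higher and 1 lower. All genes called there went from 2198 to 752. Tap2 in astrocytes with Aβ42 (adjusted p = 0.057) and RT1-CE3 in microglia with Aβ42 (adjusted p = 0.060) lost their call, and RT1-A2 in microglia with Aβ40 gained one (adjusted p = 0.048). Between the fibrils in microglia RT1-A2, RT1-CE15 and Tapbp lost theirs, and between the cell types RT1-CE14 and RT1-CE2 (response to Aβ42), Tapbp (response to Aβ40) and RT1-DMa and RT1-DMb (control levels). The block changed the call of no other gene of the set.

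Depth limits the class II genes in control astrocytes, which lay at 0 to 6 counts per library in RT1-Ba, RT1-Bb, RT1-Da and RT1-Db1, and the loading genes in both cell types. The cause of the changes above that no value explains was not tested.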
